A study of Mus musculus with 7 samples.

Results

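The aminoacyl-tRNA synthetases of mouse Paneth cells were examined, the enzymes that load each transfer RNA with its amino acid. With earlier results of these data known, a fixed list of 37 genes was chosen by name, 21 for cytosolic and 16 for mitochondrial enzymes. Of these, 35 had a transcript cluster (the group of probes that the array reads as 1 gene) annotated to a single symbol, among 19938 genes that did, and the brightest cluster stood for each gene. Aars shared its cluster with Exosc6, and no cluster used here named Dars, so neither was analysed here, which left 19 cytosolic and 16 mitochondrial genes. Mars is named Mars1 in the annotation. All 35 passed the filter on low values, a mean over all arrays of at least 6.79 on the log2 scale, as did 13409 genes in all.

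Paneth cells sit among the stem cells of the small-intestinal crypt and secrete antimicrobial proteins. They were sorted by flow cytometry, and the total RNA of each sample was hybridised to 1 of 7 arrays. Mice aged 4 months were either fed freely (ad libitum diet, n = 3) or kept on a calorie restricted diet that held 60% of those calories (n = 4), and the diets lasted 4 to 7 weeks. The labels used here state no strain, sex or number of mice per array. They call the samples biological replicates without saying whether each is a separate animal, so p-values measure the spread between these samples.

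Each amino acid has its own synthetase, and most amino acids have separate nuclear genes for the cytosolic and the mitochondrial enzyme. Gars and Kars serve both compartments from a single gene, Eprs joins the glutamate and proline enzymes in a single protein, and Qars charges glutamine in the cytosol. Several cytosolic synthetase genes, but as a rule not the mitochondrial ones, are known targets of ATF4, the transcription factor that answers amino acid shortage and endoplasmic reticulum stress. ATF4 binds with C/EBP partners at a composite element whose core reads TGATGNAA. Paneth cells make and secrete protein in large amounts, and every residue of it passes through a synthetase.

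Start-site windows from RefSeq (GRCm38.p6, 250 bases before to 50 bases from the start site on) were available for 14 of the 21 cytosolic and 14 of the 16 mitochondrial genes. The letters TGATGNAA, searched on both strands, were found in 5 of the 14 cytosolic genes (35.7%), Aars, Gars, Iars, Tars and Yars, and in 0 of the 14 mitochondrial genes. Of all 32851 windows, 3.97% held them, or 4.51% of 27025 genes. The stricter form TGATGCAA was found in 4 of those 5 genes, all but Gars, against 1.03% of all genes. A match describes these letters and shows no binding, and no other motif was searched. The 4 windows of measured genes are shown because these genes were also among the 5 cytosolic genes with the largest differences between the diets. For Iars this holds only with its brightest cluster. Its other cluster had a difference of 0.15, below those of Nars (0.17) and Mars (0.16). The windows are those of Gars (chr6:55037751-55038050, + strand), Iars (chr13:49681880-49682179, + strand), Tars (chr15:11399609-11399908, - strand) and Yars (chr4:129189653-129189952, + strand). Each is given 5′ to 3′, with the match in capitals and the start site at base 251.
Iars: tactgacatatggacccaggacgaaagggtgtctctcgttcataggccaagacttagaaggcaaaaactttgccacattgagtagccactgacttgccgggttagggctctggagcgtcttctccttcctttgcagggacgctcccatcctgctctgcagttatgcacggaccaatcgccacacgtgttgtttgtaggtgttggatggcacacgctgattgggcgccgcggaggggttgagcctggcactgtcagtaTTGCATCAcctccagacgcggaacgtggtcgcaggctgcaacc
Gars: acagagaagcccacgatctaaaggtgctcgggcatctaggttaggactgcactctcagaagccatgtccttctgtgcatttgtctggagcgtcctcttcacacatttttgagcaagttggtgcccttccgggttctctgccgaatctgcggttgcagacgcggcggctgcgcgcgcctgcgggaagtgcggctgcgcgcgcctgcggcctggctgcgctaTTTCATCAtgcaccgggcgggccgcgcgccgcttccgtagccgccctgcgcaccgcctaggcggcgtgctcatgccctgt
Tars: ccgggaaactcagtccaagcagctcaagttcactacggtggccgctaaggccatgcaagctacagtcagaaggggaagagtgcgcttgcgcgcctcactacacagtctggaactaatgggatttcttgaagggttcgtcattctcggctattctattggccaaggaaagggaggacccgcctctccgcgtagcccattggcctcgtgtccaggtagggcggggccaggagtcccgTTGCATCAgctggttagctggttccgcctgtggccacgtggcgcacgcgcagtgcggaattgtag
Yars: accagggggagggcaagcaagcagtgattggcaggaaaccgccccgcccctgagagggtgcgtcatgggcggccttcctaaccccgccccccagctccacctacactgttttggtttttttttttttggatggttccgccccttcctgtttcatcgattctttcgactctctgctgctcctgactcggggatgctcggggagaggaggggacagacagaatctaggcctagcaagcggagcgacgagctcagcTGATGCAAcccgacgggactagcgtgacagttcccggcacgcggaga
In Iars, Gars and Tars the match is the reverse complement, TTNCATCA, and in Yars it reads as searched. It begins 7 bases after the start site in Iars and 3 bases after it in Yars, and 30 and 15 bases before it in Gars and Tars.

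No synthetase gene passed the test between the diets. Of the 35 genes, 0 had an adjusted p below 0.05 (limma, Benjamini-Hochberg over 13409 genes), where 0.664% of all genes tested did (0.656% higher and 0.00746% lower under calorie restriction). At an unadjusted p below 0.05 there were 5 of 35, Iars, Rars, Gars, Nars2 and Iars2, against 9.3% of all genes. Without moderation of the variances the counts were 4 of 35 unadjusted and 0 adjusted. Over all genes that fit had 1318 of 13409 unadjusted and 0 adjusted, so its adjusted count does not set the members apart. All differences below are calorie restricted minus ad libitum in log2 units, with the standard error (SE) of the fit. The 95% intervals of the 35 differences lay between -0.54 and 0.61, and 30 of them included 0. The median SD within groups was 0.15 for the members, as for all genes tested.

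The differences are given by compartment. Among cytosolic genes 17 of 19 had a positive difference, with a median of 0.10 (14 of 19 after quantile normalization and 19 of 19 after median centring). Among mitochondrial genes 10 of 16 did, with a median of 0.02 (9 and 14 of 16 under those scalings). Over all genes tested 54.2% were positive, with a median of 0.01. The all-gene median was 0.03 after quantile normalization and 0.10 after median centring, which raised every difference by the same amount. The mitochondrial median turned with single arrays, to -0.05 when ad libitum replicate 1 was left out and to -0.01 when calorie restricted replicate 4 was, and the cytosolic median stayed between 0.08 and 0.15 in the 7 fits without 1 array. With the mean of enterocyte markers as a covariate the order was the other way. Then 8 of 19 cytosolic and 12 of 16 mitochondrial genes were positive, with medians of -0.05 and 0.33. That mean was fully separate between the diets, and errors widened (SE of Iars 0.23 against 0.08, of Sars2 0.56 against 0.19). With 0 members at an unadjusted p below 0.05 (limma), that fit does not establish an order of the compartments. The difference between compartments was not tested.

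**Figure D1:**
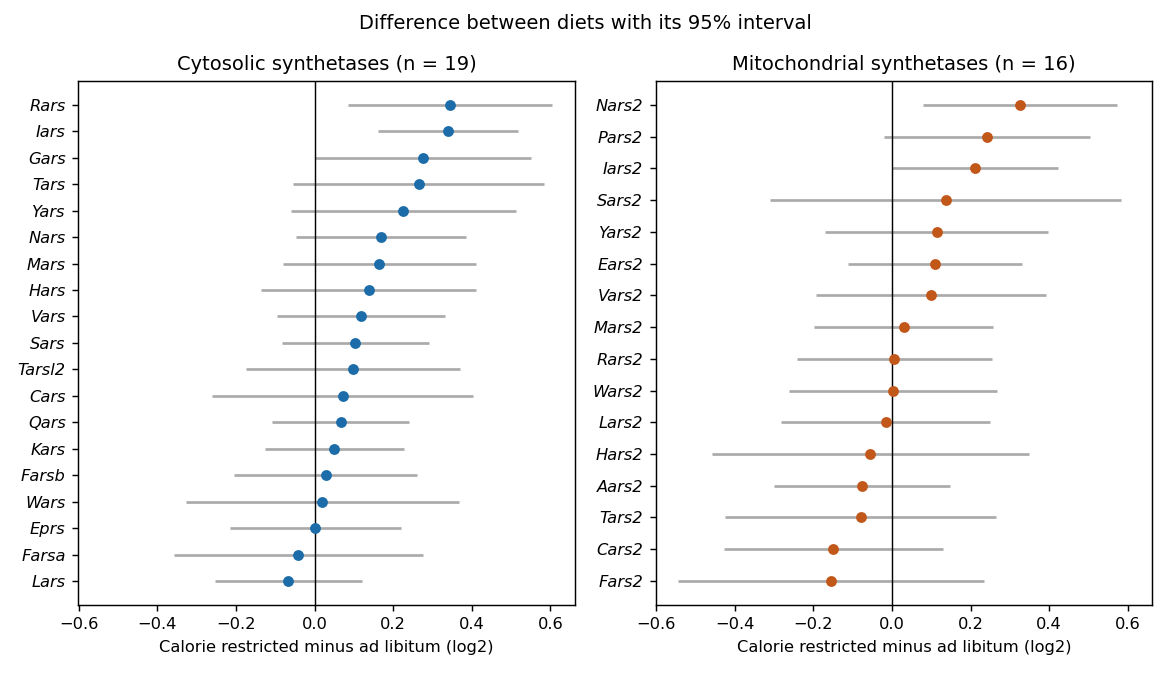
Difference between the diets (calorie restricted minus ad libitum, log2, horizontal axis) for 19 cytosolic (left) and 16 mitochondrial (right) synthetase genes. Points are fitted differences and bars their 95% intervals, and 30 of the 35 intervals include 0.

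Iars, which charges isoleucine and is a core enzyme of the multisynthetase complex, had the smallest p of the family when read from its brightest cluster. Its log2 level was 11.97, 11.78, 11.84 and 11.89 under calorie restriction and 11.50, 11.47 and 11.63 under ad libitum feeding, in the order of the replicate numbers, as for every gene below. Every calorie-restricted array lay above every ad libitum array, as for 7.14% of all genes tested. The difference of 0.34 ± 0.08 (1.27-fold, limma, adjusted p = 0.137) did not pass over all genes. An exact two-sided permutation test of this single gene over 35 splits of the arrays gave p = 0.0286, the smallest these splits allow. Under array weights the limma adjusted p was 0.0199. In that fit 4052 of 13409 genes had an unadjusted p below 0.05, against 1247 in the main fit. Over the other alternatives the adjusted p of Iars ranged up to 0.944.

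Iars was also the only member with a further single-symbol cluster, and the values differed between them. The brighter cluster (10345025) gave the values above. The other (10405094) stood at 11.90, 11.66, 11.81 and 11.68 under calorie restriction and at 11.61, 11.58 and 11.64 under ad libitum feeding. These groups did not overlap either, but the gap was narrow, with a difference of 0.15 ± 0.08 (1.11-fold, limma, adjusted p = 0.645, exact permutation p = 0.0857). The annotation assigns a shared RefSeq transcript to both clusters. Whether either reads another genomic copy could not be checked without the array's coordinates. The brighter cluster was taken by rule and is not shown to be the better measure of Iars. The size of the Iars difference thus depended on the cluster, and with the other cluster in its place the lowest adjusted p of the family was 0.352 (limma).

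Rars, the arginine enzyme and another member of the multisynthetase complex, had a difference as large as that of Iars with a wider spread. Its level was 12.87, 12.47, 12.74 and 12.61 under calorie restriction and 12.42, 12.15 and 12.41 under ad libitum feeding. The lowest calorie-restricted array stood just above the highest ad libitum array, and the difference was 0.34 ± 0.11 (adjusted p = 0.352). Groups that do not overlap were found for 4 of the 35 genes, Iars, Rars, Nars2 and Iars2, all higher under calorie restriction. Over all genes 10.2% did not overlap, or 7.14% in the higher direction, so the members' share of 11.4% is close to that of all genes.

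Gars, the glycine enzyme of both compartments, was at 11.84, 11.38, 11.67 and 11.68 against 11.27, 11.30 and 11.53. Calorie restricted replicate 2 lay below ad libitum replicate 3, so the groups overlapped (0.28 ± 0.12, limma adjusted p = 0.537). Tars, the threonine enzyme, was at 10.82, 10.50, 10.67 and 10.42 against 10.57, 10.08 and 10.36 (0.27 ± 0.14, adjusted p = 0.650). Its ad libitum spread was wide, from the lowest value of all 7 arrays in replicate 2 to a value above 2 calorie-restricted arrays in replicate 1. Yars, the tyrosine enzyme, was at 10.82, 10.59, 10.88 and 10.41 against 10.52, 10.35 and 10.48 (0.23 ± 0.12, adjusted p = 0.680). Nars, the asparagine enzyme, was at 12.54, 12.26, 12.52 and 12.32 against 12.29, 12.12 and 12.31 (0.17 ± 0.09, adjusted p = 0.683). In Yars and Nars the same pair of arrays, calorie restricted replicates 1 and 3, stood above all others.

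The other 13 cytosolic genes had differences between -0.07 and 0.16. The methionine enzyme Mars was at 0.16 ± 0.11 and the histidine enzyme Hars at 0.14 ± 0.12. Vars, Sars, Tarsl2, a threonine enzyme gene related to Tars, and Cars lay between 0.07 and 0.12. Around 0 were Qars (0.07 ± 0.08), Kars (0.05 ± 0.08), Farsb (0.03 ± 0.10), Wars (0.02 ± 0.15) and Eprs (0.0015 ± 0.09), of which the last 3 turned negative under quantile normalization. Lars, the leucine enzyme that also reports leucine to mTORC1, was at -0.07 ± 0.08, and Farsa, the partner subunit of Farsb in the phenylalanine enzyme, at -0.04 ± 0.14. Centring each array on its median raised the all-gene median difference from 0.01 to 0.10 and put Lars at 0.020 and Farsa at 0.046.

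**Figure D2:**
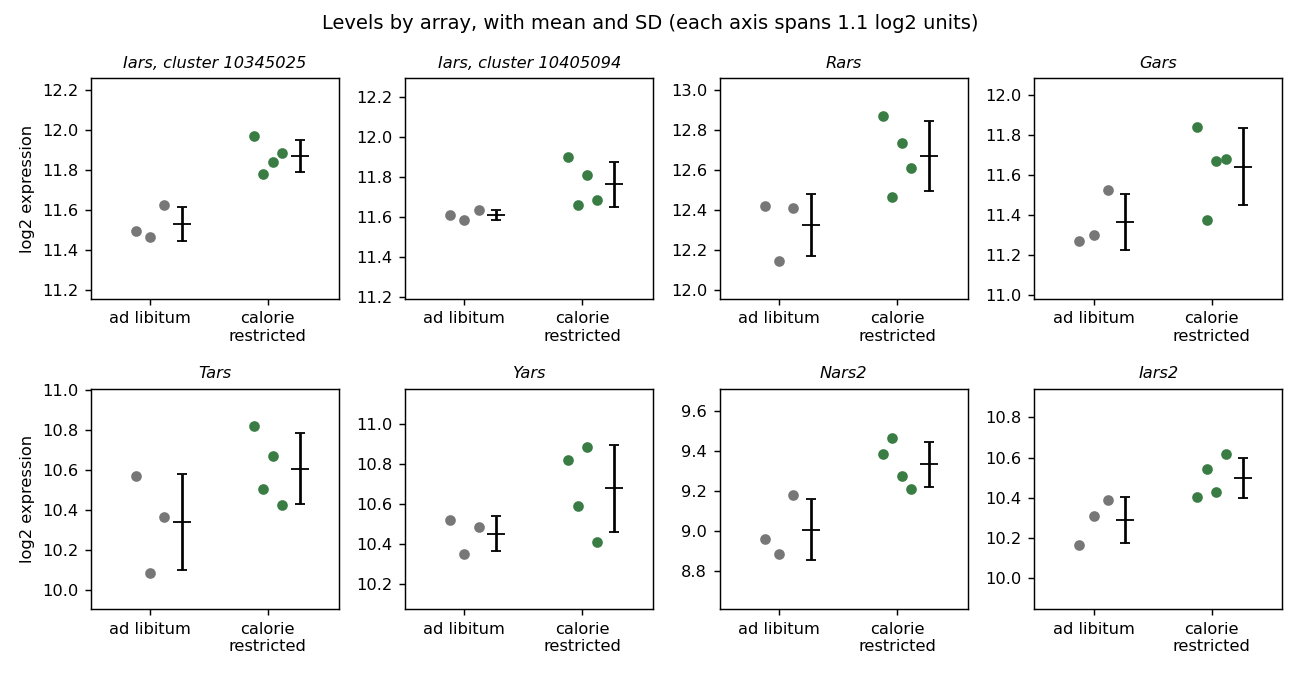
log2 expression (vertical axis) by diet for the 2 Iars clusters and 6 further members. Points are single arrays (3 ad libitum, 4 calorie restricted), and bars give the mean and SD. The groups do not overlap for Iars, Rars, Nars2 and Iars2.

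The enzymes were also grouped by role. The 7 measured enzymes of the multisynthetase complex (Eprs, Iars, Kars, Lars, Mars, Qars and Rars) had a median of 0.07, with 6 positive and 0 called. The 9 class I enzymes, whose catalytic domain carries a Rossmann fold, had a median of 0.12 and the 9 class II enzymes a median of 0.10, with 8 positive in each. The 12 measured genes commonly listed as ATF4 targets (Cars, Eprs, Gars, Iars, Lars, Mars, Nars, Sars, Tars, Vars, Wars and Yars) had a median of 0.14, with 11 positive, against 0.07 and 6 positive for the other 7. The 4 measured genes with TGATGNAA in their start-site window lay between 0.23 and 0.34, with a median of 0.27. The 8 cytosolic genes with a window and no match lay between -0.04 and 0.16, with a median of 0.06. These ranges are apart only with Iars read from its brightest cluster. Its other cluster, at 0.15, lay within the range of the genes without a match. Rars, whose difference was 0.34, has no window in the table used. The motif was searched with the differences already known, so the split is a description.

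The mitochondrial enzymes work on the transcripts of the mitochondrial genome and are imported from the cytosol. The asparagine enzyme Nars2 had the smallest p among them, at 9.39, 9.47, 9.28 and 9.21 under calorie restriction and 8.96, 8.88 and 9.18 under ad libitum feeding. Its groups did not overlap, although calorie restricted replicate 4 and ad libitum replicate 3 nearly met, and the difference was 0.33 ± 0.11 (limma, adjusted p = 0.354). The isoleucine enzyme Iars2 was at 10.40, 10.54, 10.43 and 10.62 against 10.16, 10.31 and 10.39 (0.21 ± 0.09, adjusted p = 0.535). Its groups did not overlap either, again with neighbouring values at the boundary. The proline enzyme Pars2, the dimmest member, was at 7.94, 7.92, 7.65 and 7.80 against 7.43, 7.78 and 7.55, and its groups overlapped (0.24 ± 0.11, adjusted p = 0.593).

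The remaining mitochondrial genes were spread to either side of 0. The cysteine enzyme Cars2 was at 9.36, 9.07, 8.96 and 9.25 against 9.19, 9.29 and 9.45 (-0.15 ± 0.12, limma adjusted p = 0.809), with ad libitum replicate 3 above every other array. The phenylalanine enzyme Fars2 had a difference of -0.16 ± 0.17, and Tars2, Aars2, Hars2 and Lars2 lay between -0.08 and -0.02. On the positive side, Sars2 (0.14 ± 0.19), Yars2 (0.11 ± 0.12), Ears2, which loads glutamate (0.11 ± 0.10), and Vars2 (0.10 ± 0.13) had their highest value in calorie restricted replicate 1 or 4. Mars2, Rars2 and Wars2 had differences of 0.03, 0.0053 and 0.0030.

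Read by array, most of the 16 mitochondrial genes moved together across the diets. Among the exceptions, Nars2 was highest in calorie restricted replicate 2 (9.47) and Mars2 in ad libitum replicate 1 (9.42). Each gene was set against its own mean over the 7 arrays. All 16 were above it in calorie restricted replicate 4 and 14 in replicate 1, but only 3 in each of replicates 2 and 3. In ad libitum replicate 1 only 2 were above, against 11 and 10 in replicates 2 and 3. Their median deviation was 0.12, -0.08, -0.09 and 0.09 under calorie restriction and -0.20, 0.06 and 0.09 under ad libitum feeding. The arrays also differed in their overall median, which was 7.26, 7.24, 7.27 and 7.42 in the first group and 7.29, 7.44 and 7.42 in the second. The 3 arrays with the highest overall medians (calorie restricted replicate 4 and ad libitum replicates 2 and 3) had positive mitochondrial medians, and calorie restricted replicate 1 did too, with a low overall median. The part of the overall medians in the mitochondrial values was not tested. The 10 mitochondrial translation factors had median deviations of 0.19, 0.0040, -0.08 and 0.06, and of -0.11, -0.05 and 0.07.

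The cytosolic genes followed another order of arrays. Of 19 genes, 18 were above their own mean in calorie restricted replicate 1, 15 in replicate 3, 10 in replicate 4 and 7 in replicate 2, against 6, 6 and 7 in ad libitum replicates 1 to 3. Calorie restricted replicate 1 was the highest array for 11 of them, and ad libitum replicates 1 and 2 were the lowest for 7 and 9. Calorie restricted replicate 2 therefore stood with the ad libitum arrays by this count, at a median deviation of -0.06 against -0.10, -0.14 and -0.02. Its mean of enterocyte markers, at 11.8, was as high as in the other calorie-restricted arrays. This is a single array, and the part of enterocyte content in the order of arrays was not tested.

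**Figure D3:**
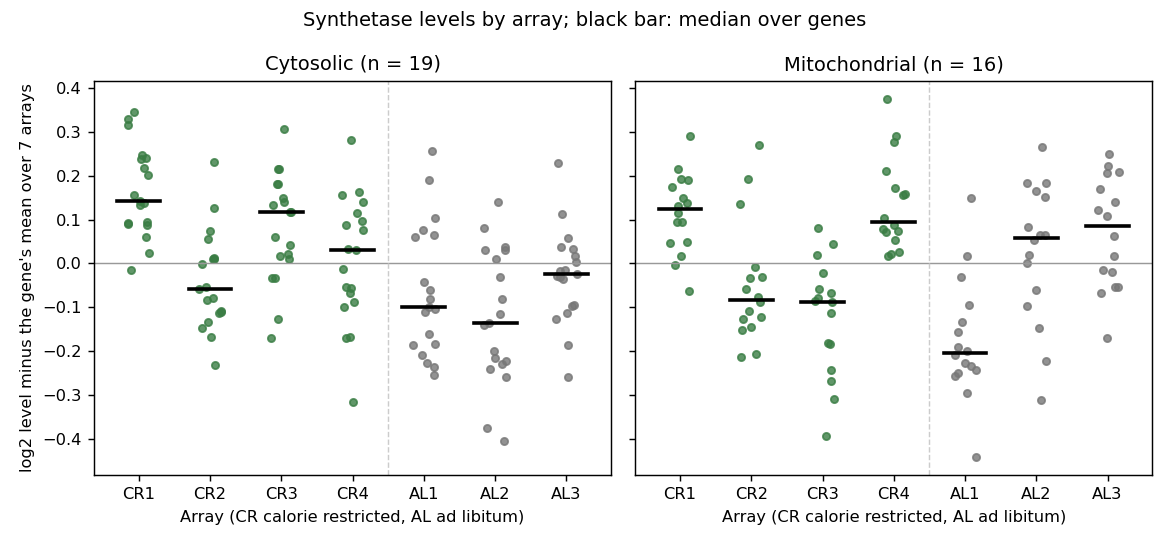
Deviation of each gene's log2 level from its own mean over the 7 arrays (vertical axis) by array (horizontal axis), for 19 cytosolic and 16 mitochondrial genes. Points are genes and black bars their medians, which run from -0.14 to 0.14 for cytosolic and from -0.20 to 0.12 for mitochondrial genes.

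ATF4-linked synthetases and other ATF4 targets are given side by side by array. All 12 synthetases were above their own mean in calorie restricted replicates 1 and 3, 4 in replicate 2 and 5 in replicate 4, against 4, 2 and 4 under ad libitum feeding. Of 31 ATF4 targets that are not synthetases, 26 were above in calorie restricted replicate 1, 30 in replicate 3, 20 in replicate 4 and 4 in replicate 2, against 7, 3 and 16 under ad libitum feeding. Calorie restricted replicate 4 and ad libitum replicate 3 differed between the lists, with 41.7% and 33.3% of the synthetases above against 64.5% and 51.6% of the other targets. Of the 7 other cytosolic synthetases, 6, 3, 3 and 5 were above in the calorie-restricted arrays and 2, 4 and 3 in the ad libitum arrays. Over all genes tested, the share above ran from 41.2% to 57.2% by array. No difference between these lists was tested. As a list the 31 targets had a median difference of 0.28, with 29 positive and 0 called, 13 of them at an unadjusted p below 0.05 in limma. The largest differences of the list came with wide errors, 1.64 ± 0.58 for the cystine carrier Slc7a11 and 1.55 ± 0.61 for Chac1, which degrades glutathione. Slc7a1, a carrier of cationic amino acids, was at 11.34, 10.99, 11.10 and 11.19 against 10.82, 10.69 and 10.83 (0.38 ± 0.10, limma, adjusted p = 0.192). Trib3, a pseudokinase that ATF4 induces, was at 8.23, 7.62, 8.43 and 8.17 against 7.46, 7.23 and 7.54 (0.70 ± 0.19, adjusted p = 0.217). Atf4 mRNA itself was at 9.51 ± 0.15 (SD, n = 4) against 9.46 ± 0.09 (n = 3), and Asns, the asparagine synthetase, at 12.95 ± 0.19 against 12.89 ± 0.09.

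**Figure D4:**
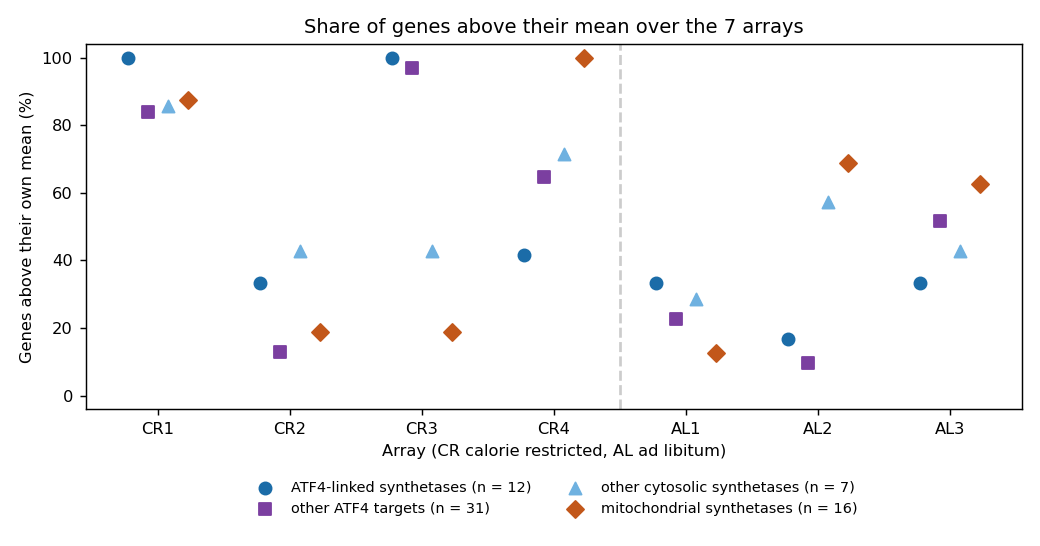
Percentage of genes above their own mean over the 7 arrays (vertical axis) in each array (horizontal axis), for 4 gene groups. ATF4-linked synthetases reach 100% in calorie restricted replicates 1 and 3, and mitochondrial synthetases reach 100% in calorie restricted replicate 4.

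For 12 amino acids both the cytosolic and the mitochondrial enzyme were measured under matching names, which sets the compartments side by side. The cytosolic difference was the larger in 9 of the 12 pairs, with each gene read from its brightest cluster. In the threonine pair Tars was at 0.27 ± 0.14 and Tars2 at -0.08 ± 0.15, and in the arginine pair Rars was at 0.34 ± 0.11 and Rars2 at 0.0053 ± 0.11. For isoleucine both were positive, at 0.34 ± 0.08 and 0.21 ± 0.09, but the other Iars cluster, at 0.15 ± 0.08, lay below Iars2. The exceptions were asparagine, with Nars at 0.17 ± 0.09 and Nars2 at 0.33 ± 0.11, serine (0.10 ± 0.08 and 0.14 ± 0.19) and leucine (-0.07 ± 0.08 and -0.02 ± 0.12). No pair was tested for its difference.

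**Figure D5:**
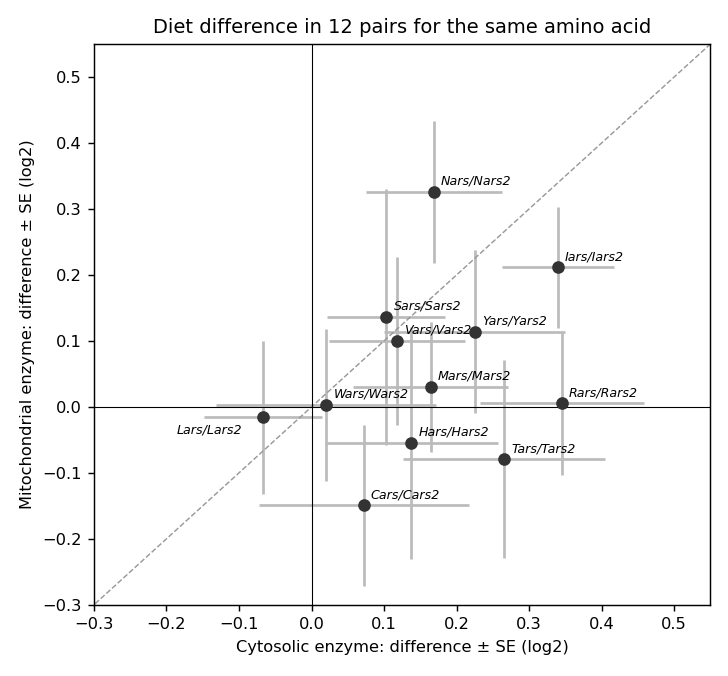
Difference between the diets (log2, ± SE) of the cytosolic (horizontal axis) and the mitochondrial enzyme (vertical axis) for 12 amino acids. Each point is a pair and the dashed line marks equal differences, with 9 of 12 pairs below it. Iars is read from its brightest cluster.

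Genes that work beside the synthetases were read from lists of their own. Of 17 measured partners and tRNA supply factors 0 passed and 12 were positive, with a median of 0.07. Trnt1, which adds the CCA end to tRNAs, was at 8.94, 8.78, 8.80 and 8.90 against 8.51, 8.63 and 8.65 (0.26 ± 0.09, limma adjusted p = 0.380). Gatc, a subunit of the enzyme that makes mitochondrial glutaminyl-tRNA from the product of Ears2, was at 0.22 ± 0.08 (adjusted p = 0.432). The scaffold subunits of the multisynthetase complex Aimp1, Aimp2 and Eef1e1 were at 0.14 ± 0.12, 0.07 ± 0.11 and 0.0053 ± 0.08, and the tRNA exporter Xpot at 0.19 ± 0.11. Of 9 cytosolic elongation and termination factors 0 passed, with a median of 0.03, and the smallest p belonged to Eif5a (0.15 ± 0.07) and Eef2 (0.05 ± 0.05). Of 10 mitochondrial translation factors 0 passed, with a median of 0.04, and the smallest p belonged to Mtrf1 (0.11 ± 0.08) and Gfm1 (0.15 ± 0.12).

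Sensors of uncharged tRNA and of the integrated stress response had 0 of 14 members past the threshold and a median of 0.04. Eif2ak4 (GCN2), the kinase that binds uncharged tRNA, was at 9.21, 9.35, 9.28 and 9.22 under calorie restriction and 9.52, 9.56 and 9.34 under ad libitum feeding (-0.21 ± 0.09, limma adjusted p = 0.533). Calorie restricted replicate 2 stood just above ad libitum replicate 3. Eif2b1, a subunit of the exchange factor that the pathway inhibits, was at 0.21 ± 0.08 (adjusted p = 0.464).

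The sort and the arrays set the frame for these values. Of 21 Paneth markers 0 passed the test, 16 were negative and 1 had an unadjusted p below 0.05 in limma, with a median of -0.05. That gene, the mucosal pentraxin Mptx1, was at 10.66, 11.13, 9.48 and 11.15 under calorie restriction and 12.74, 11.69 and 11.62 under ad libitum feeding, so its groups did not overlap (-1.42 ± 0.44, limma adjusted p = 0.311). Spdef, a transcription factor of secretory cells, was at -0.33 ± 0.20 (adjusted p = 0.712). Markers of absorptive enterocytes did differ, with 12 of 27 higher under calorie restriction and 0 lower. Their mean was 11.6 to 11.8 in the calorie-restricted arrays and 10.1 to 10.8 in the ad libitum arrays. Synthetases are made in every cell, so their levels mix those of all cells sorted, and in such bulk samples a changed number of cells of a type and a changed amount of RNA per cell cannot be told apart. With the enterocyte mean as a covariate, 19 of the 35 synthetase differences turned sign, with 0 genes called (limma, 266 at an unadjusted p below 0.05, none of them a member) and a lowest member adjusted p of 0.944. The marker means of the 2 diets are fully separate, so enterocyte content and diet cannot be told apart here. The other marker lists had 0 members called, but some leaned one way. Goblet markers were negative in 6 of 7, with 3 at an unadjusted p below 0.05 in limma and Muc2 at -0.20 ± 0.06, tuft markers were negative in 7 of 7, and enteroendocrine markers positive in 12 of 13, with medians of -0.06, -0.19 and 0.26. Crypt, immune and stromal markers were positive in 5 of 8, 2 of 6 and 2 of 5. The part of these cell types in the synthetase values was not tested.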

How the data were processed

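The authors deposited log2 expression values per transcript cluster. Per the submitters' processing notes the software was Affymetrix Expression Console, and its algorithm, version and normalization are not stated there. The values were used without further scaling. No detection call was used. The platform annotation gave 1 symbol for 21789 of 35556 clusters. Each gene took its brightest single-symbol cluster, and a gene was tested where its mean reached 6.79, the 40th percentile over all clusters. Array medians ran from 7.24 to 7.44, and correlations between arrays across genes from 0.949 to 0.993. Precision is limited by having 7 arrays.

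The test between diets was limma's (3.58.1, under R 4.3.3). It used lmFit and eBayes with trend and without covariates, and p-values were adjusted by Benjamini-Hochberg over 13409 genes. The fit was checked on simulated data, with changes larger than any synthetase difference here. That check does not cover differences as small as theirs. Members, gene lists, the motif and the covariate were chosen with earlier results of these data known. Values in every array are given for Iars, for the 6 cytosolic and 4 mitochondrial genes with the smallest unadjusted p, and 2 genes per companion list were named by p. Aimp1, Aimp2, Eef1e1, Xpot, Atf4, Asns, Slc7a11 and Chac1 fall outside that rule and were chosen after their values were seen. Alternatives were quantile normalization, median centring, no filter or a 60th percentile filter, the mean of all clusters, no trend, array weights, robust estimation, unmoderated variances (an ordinary linear model), a replicate block, the enterocyte covariate and leaving out each array. The other Iars cluster was added after seeing the data. Start-site windows came from RefSeq (GRCm38.p6). Figures were drawn with matplotlib 3.10.9.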

Additional observations from a re-analysis of the deposited data

Results flagged for a closer look

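Among 45 named genes in the calorie-restricted group of 4, 2 had an array set apart from the others by a gap above Dixon's 95% critical value, where chance gives about 1 in 20 groups. Wars, the tryptophan enzyme, was at 11.93 in calorie restricted replicate 4, 0.39 below the next array, over a range of 0.46. Eif5a was at 12.65 in calorie restricted replicate 1, 0.13 above the next array, over a range of 0.15.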

How the results depend on the processing

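Over all alternatives, 560 of 630 member differences kept their direction and stayed uncalled (adjusted p not below 0.05), 66 turned sign and 4 became called. Those 4 arose under array weights, where 4 members passed (Iars, Rars, Tars and Nars2, beside Gatc and Slc7a1 of the other lists) among 963 higher and 392 lower genes in all, and where 6 mitochondrial differences were positive. The genes called higher numbered 53 with quantile normalization and 0 with the ordinary linear model, the replicate block and the enterocyte covariate. The genes called lower numbered 0 in those 4 fits, with median centring and with the 60th percentile filter, and 2 with no filter. Without 1 array the higher count ran from 12 to 97 (12, 23, 12 and 58 without calorie restricted replicates 1 to 4, and 32 without ad libitum replicate 2) and the lower count from 0 to 9. The cytosolic median was 0.19 after median centring, where the median of all genes was 0.10. With the enterocyte covariate, which was fully separate between the diets, the cytosolic median was -0.050 with 8 positive, and the mitochondrial median 0.33. The cause of these shifts was not tested.

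Signs turned as follows. Quantile normalization gave Eprs -0.037, Farsb -0.013, Rars2 -0.027 and Wars -0.00092. Median centring gave Aars2 0.010, Farsa 0.046, Hars2 0.032, Lars 0.020, Lars2 0.071 and Tars2 0.0072. Array weights gave Farsb -0.083, Rars2 -0.064, Sars2 -0.050, Vars2 -0.071 and Wars2 -0.096. The replicate block gave Farsb -0.015, Rars2 -0.051 and Wars2 -0.023. The enterocyte covariate gave Aars2 0.32, Cars -0.050, Eif5a -0.11, Eprs -0.35, Fars2 0.44, Farsa 0.46, Gfm1 -0.20, Hars -0.32, Hars2 0.47, Lars2 0.48, Mars -0.049, Mars2 -0.21, Nars -0.17, Nars2 -0.051, Rars -0.10, Tars -0.45, Tars2 0.35, Tarsl2 -0.38, Wars -0.25, Yars -0.21 and Yars2 -0.25. Without 1 array the ranges were -0.025 to 0.21 for Cars, -0.068 to 0.054 for Eprs, -0.14 to 0.017 for Farsa, -0.057 to 0.076 for Farsb, -0.18 to 0.068 for Hars2, -0.098 to 0.062 for Lars2, -0.035 to 0.11 for Mars2, -0.060 to 0.067 for Rars2, -0.045 to 0.28 for Sars2, -0.23 to 0.0022 for Tars2, -0.10 to 0.15 for Wars and -0.10 to 0.074 for Wars2.

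Same-numbered arrays of the diets did not deviate together (correlations of -0.13, -0.27 and -0.55 across genes). Arrays with unlike numbers ran from -0.73 to 0.64. These correlations therefore cannot show whether same-numbered arrays were handled together. In the replicate block calorie restricted replicate 4 has no partner, so the differences equal those without that array (58 genes called higher). The block left 0 genes called, 988 of them at an unadjusted p below 0.05 in limma.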
